A study of Mus musculus with 12 samples.

Results

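Nuclear RNA was compared with whole-cell (total) RNA in mouse embryonic stem cells (ESC) treated with doxycycline (dox). For each gene, the mean log2 value of the column labelled total RNA with dox was subtracted from that of the column labelled nuclear RNA with dox. Genes with a mean of at least 1 RPKM (reads per kilobase of transcript, scaled to the depth of the library) in either column were kept, 9136 of the 19716 genes in the deposited table. The median gene was 1.24-fold lower in the nuclear column (log2 -0.31), and every difference below is given relative to it, as a centred log2 difference of nuclear over total RNA. Where RPKM values stand as a pair, the nuclear column comes first, and a value without a unit beside them is the centred difference. "Higher" and "lower" therefore mean higher or lower in the nuclear column than the median gene. The ends of the ranking are the 457 genes (5.0%) on each side.

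All libraries came from one kind of ESC, which carry a dox-inducible transgene for AGO2 with HA and Flag tags, and were grown on gelatin in serum with leukemia inhibitory factor. The groups with dox had 2.5 ug/ml for 15 h before harvest. The groups without dox carried the same transgene and had none. Nuclear RNA was taken from fractionated cells, total RNA from lysed whole cells, and ribosomal RNA was depleted from both. The labels name 3 libraries in each of the 4 groups and do not say whether these were separate cultures, so the p-values measure the spread between libraries, which may be technical. The promoter of the transgene and the number of clones are not given in the sources used here.

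A messenger RNA is transcribed, spliced and polyadenylated in the nucleus and exported to the cytoplasm, where ribosomes translate it, at the membrane of the endoplasmic reticulum (ER) if it codes for a secreted or surface protein. Whole-cell RNA contains the RNA of the nucleus, so the comparison sets one compartment against a sum that includes it. Small nucleolar RNAs (snoRNAs) and long noncoding RNAs such as Malat1 and Xist are known as nuclear. Replication-dependent histone mRNAs end in a stem-loop in place of a poly(A) tail.

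Only group means enter here, as the authors' table gives them, and they are printed with no SD. The spread behind each test was recovered from the authors' deposited p-values, which fitted 10 of the 12 listed libraries, with no sign of which 2 stayed out: 3 of nuclear RNA with dox (10.34, 10.91 and 11.15 M reads), 2 of total RNA with dox (10.96 and 11.79 M), 2 of nuclear RNA without dox (15.59 and 18.9 M) and 3 of total RNA without dox (15.29 to 16.89 M). Ago2, the gene induced by design, averaged 2.39 RPKM in nuclear and 3.43 RPKM in total RNA with dox, and 8.65 and 9.12 RPKM without dox. It was thus listed at lower levels where the label says dox, and whether reads of the transgene are counted at Ago2 is not given in the sources used here. The groups are therefore named by their column labels, and each direction holds for those columns. ESC markers were abundant in both dox columns, summing to 2518 RPKM over 8 genes in nuclear and 4181 RPKM in total RNA. Most of both sums was Dppa5a, with 1805 and 3387 RPKM. Marker sums of other cells were 1.21 and 1.90 RPKM for fibroblasts (Dcn listed at 0) and 0.427 and 0.507 RPKM for endoderm. Only 5 of 9 fibroblast and 5 of 7 endoderm markers were found in the deposited table, so these 2 sums leave the others out. Sums were 0.284 and 0.631 RPKM for mesoderm (T at 0) and 34.0 and 22.7 RPKM for neuroectoderm (mostly Tubb3, with Olig2 at 0). Trophectoderm markers summed to 9.02 and 16.5 RPKM (Cdx2 at 0). In such bulk RNA, fewer cells of a type and less RNA per cell cannot be told apart.

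Malat1 and Neat1, RNAs known as nuclear landmarks, lay below the median gene with dox. Malat1 averaged 77.3 RPKM in nuclear and 140 RPKM in total RNA, a centred difference of -0.55 (SE 0.13; limma, Benjamini-Hochberg adjusted p = 0.00432). Neat1, the scaffold of paraspeckles, averaged 1.71 and 2.78 RPKM (-0.39, SE 0.14, limma adjusted p = 0.0448). That call ended under 4 alternative settings, with adjusted p from 0.0507 to 0.841. Xist was below the filter, with 0.137 RPKM in nuclear and 0.230 RPKM in total RNA, and so was the antisense RNA Kcnq1ot1 with 0.578 and 0.646 RPKM. Cytoplasmic Actb (1219 and 1535 RPKM) and Gapdh (470 and 477 RPKM) differed from the median gene by -0.02 and 0.29, neither past the test (limma adjusted p = 0.898 and 0.169). Without dox Malat1 differed from the median gene by -0.12 and Neat1 by 0.18, neither past the test (limma adjusted p = 0.509 and 0.353). Of the 10 tested members of a list of nuclear-retained RNAs, 8 lay above the median gene with dox. Malat1 and Neat1 with dox go against the labels of the columns as nucleus and whole cell, and the fractions are named by their labels throughout.

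At an adjusted p below 0.05 by limma, 1370 genes (15.0%) stood higher with dox and 1503 (16.5%) lower, 2873 (31.4%) in all. A difference of at least 2-fold was met by 343 of the higher and 519 of the lower genes. The interquartile range of all genes was -0.34 to 0.31. Without centring, the same test gave 573 higher and 3375 lower genes, and the share of higher calls was 14.5%, against 47.7% with centring. The upper end ran from 0.90 to 12.16 with a median of 1.24, and the lower end from -10.53 to -1.10 with a median of -1.50. Telo2 at 0.90 (3.08 and 2.04 RPKM) was the last gene inside the upper end, with Tmed1 at 0.90 (8.80 and 5.84 RPKM) just outside. On the lower side Slc25a20 (8.93 and 23.7 RPKM) was just inside and Krt18 (4.62 and 12.3 RPKM) just outside, both at -1.10. One column was listed at 0 for 3 genes of the upper end and 1 of the lower end, and no fold is given for these. The counts of families below stand beside 15.0% of all genes called higher and 16.5% lower with dox, and 12.0% and 17.0% without.

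**Figure D1:**
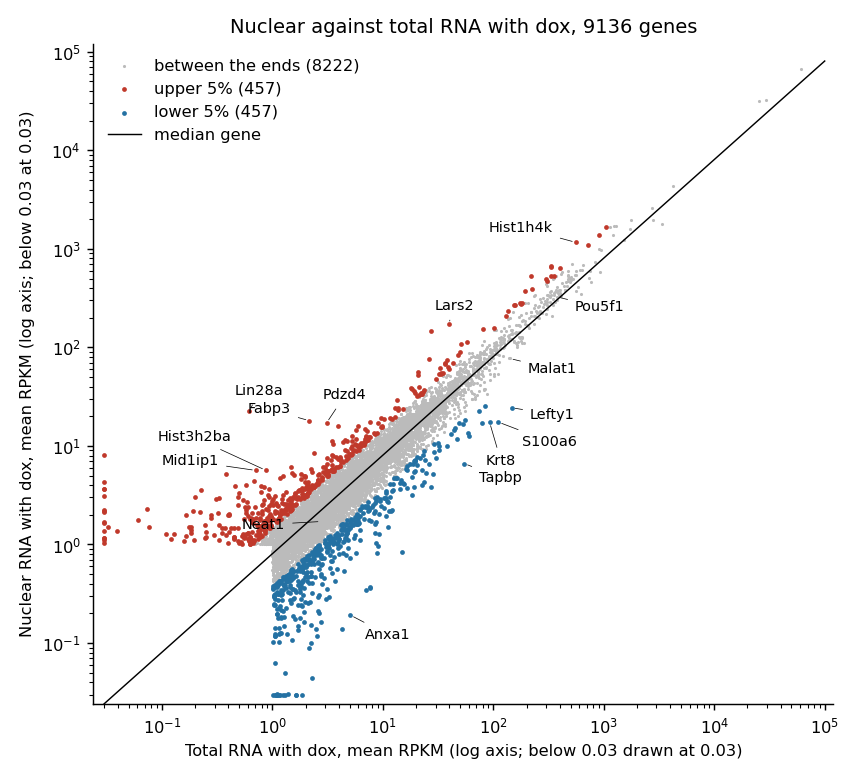
Mean RPKM in nuclear RNA with dox (vertical, log axis) against total RNA with dox (horizontal, log axis), one point a gene, with the 457 genes at each end in colour and a line for the median gene. Lin28a stands far above the line at 22.5 against 0.618 RPKM, and Lefty1 below it at 24.4 against 147 RPKM, while Malat1 and Neat1 lie below the line.

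Lin28a, which codes for the RNA-binding protein that blocks maturation of let-7 miRNAs, had the largest difference among called genes with at least 5 RPKM in the higher and 0.05 RPKM in the lower column. Outside this rule, and named after its value was seen, Pla2g1b, a secreted phospholipase, averaged 8.04 and 0.0205 RPKM (8.86, SE 1.84, limma adjusted p = 0.00217). Lin28a lies on the minus strand at chr4:134003330-134018841 (mm10) and has 4 exons. It averaged 22.5 RPKM in nuclear and 0.618 RPKM in total RNA with dox, and 5.53 and 0.244 RPKM without dox. Nuclear levels thus exceeded total levels in both treatments. Its centred difference was 5.49 with dox (SE 0.18, 45.0-fold; limma adjusted p = 8.15e-11) and 4.81 without dox (28.1-fold, limma adjusted p = 5.66e-10). Other genes of the let-7 and Lin28 axis lay far from it: Hmga1, a chromatin protein, was higher by 0.85 and the related Hmga2 was lower (-1.34), and Igf2bp1 and Igf2bp3 were at 0.24 and 0.33 without passing the test.

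Next by the same rule were Fabp3, Mid1ip1, the histone gene Hist3h2ba, which is described with its family, and Pdzd4. Fabp3, a fatty acid-binding protein, averaged 18.0 RPKM in nuclear and 2.16 RPKM in total RNA (3.37, SE 0.19, limma adjusted p = 3.16e-08). Mid1ip1, a regulator of fatty acid synthesis, averaged 5.65 and 0.709 RPKM (3.30, SE 0.27). Pdzd4, a PDZ domain protein, averaged 17.2 and 3.10 RPKM (2.78, SE 0.13). These 3 were also higher without dox, at 2.42, 2.05 and 2.50. Fblim1, an adaptor at sites of cell adhesion, and Mt3, a metallothionein, were higher by 2.34 and 2.36 with dox, and by 2.58 and 2.48 without.

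Lars2 and Mir6236 were called with dox and not without. Lars2, the mitochondrial leucyl-tRNA synthetase, averaged 171 RPKM in nuclear and 39.4 RPKM in total RNA with dox (2.43, SE 0.59, limma adjusted p = 0.00622). Without dox it averaged 18.2 and 18.0 RPKM (0.33, limma adjusted p = 0.703). Mir6236 averaged 147.5 and 27.3 RPKM with dox (2.75, SE 0.83, limma adjusted p = 0.0207) and 18.1 and 14.97 RPKM without (0.59, limma adjusted p = 0.626). Both rest on a wide spread: without moderation of the variances their adjusted p with dox was 0.11 and 0.178. The difference between dox and no dox was 2.09 for Lars2 (limma adjusted p = 0.275) and 2.15 for Mir6236 (limma adjusted p = 0.437), so neither was shown to depend on dox.

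**Figure D2:**
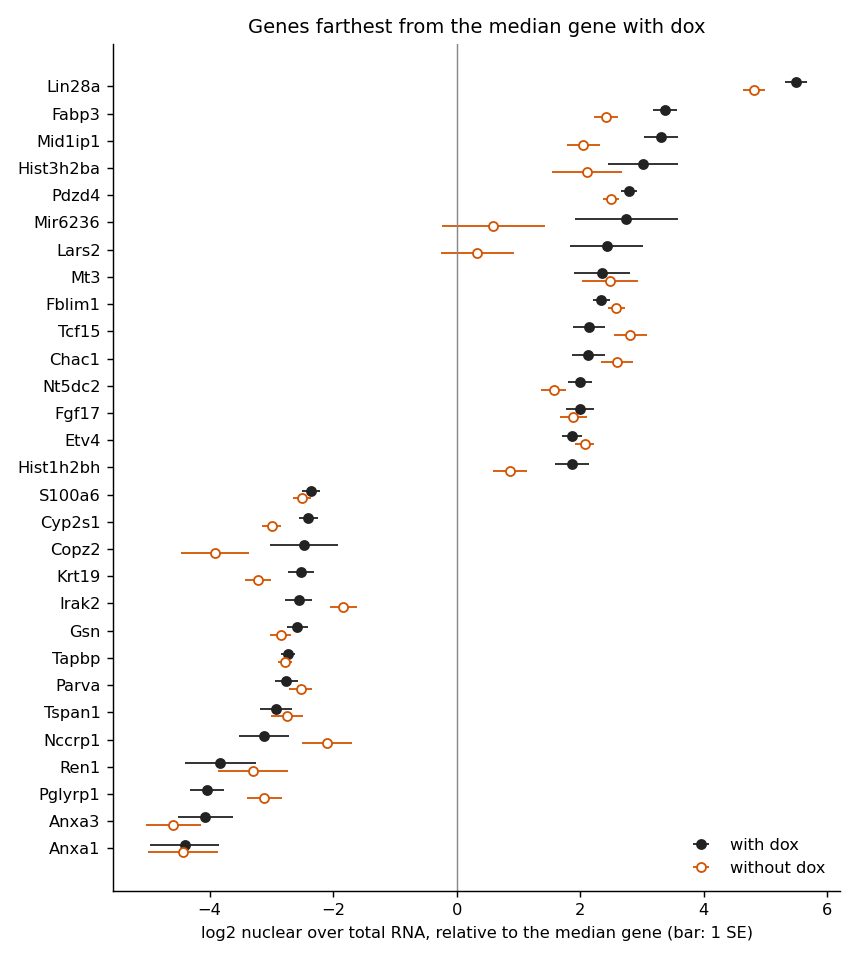
Centred log2 difference of nuclear over total RNA (horizontal) for the called genes farthest from the median gene, 15 on the upper side and 14 on the lower, with dox (filled) and without dox (open), bars 1 SE. The genes keep their side without dox, and Lars2 and Mir6236 are near 0 there.

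Genes that cells raise through the transcription factor ATF4 when amino acids are short stood high. Of 22 members of this list, which was drawn up after values were seen, 18 were called higher and 1 lower, with a median of 0.92 against 0.00 for all genes. Stc2, a secreted glycoprotein, averaged 1.98 RPKM in nuclear and 0.399 RPKM in total RNA (2.62, SE 0.30, limma adjusted p = 1.58e-05). Chac1, which degrades glutathione, averaged 5.33 and 1.51 RPKM (2.13), and Trib3, a pseudokinase that restrains ATF4, 15.8 RPKM in nuclear RNA (1.71). Enzymes of serine and asparagine synthesis were among the higher genes: Phgdh averaged 52.8 and 20.7 RPKM (1.66), Asns 150 and 103 RPKM (0.86). Atf4 itself was higher by 0.71. Cth, which makes cysteine, was the member called lower (19.7 and 33.1 RPKM, -0.44). Without dox 16 of the 22 were called higher and 2 lower, with a median of 0.78.

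Genes of FGF signalling and of the formative state split by gene. Of 14 members, also listed after values were seen, 8 were called higher and 2 lower (median 0.51). Tcf15, a bHLH factor of cells leaving the naive state, averaged 8.58 RPKM in nuclear and 2.41 RPKM in total RNA (2.15, SE 0.26). Fgf17 averaged 5.02 and 1.56 RPKM (1.99) and Etv4, an ETS factor induced by FGF, 10.4 and 3.53 RPKM (1.86). Fgf4, the main FGF of ESC, was lower (20.1 and 47.7 RPKM, -0.93), as was the homeobox gene Otx2 (1.30 and 3.88 RPKM, -1.27). All 5 were called on the same side without dox.

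A list of naive pluripotency factors also spread to both sides, with 8 of 29 called higher, 7 lower and a median of -0.02. The list, and its count of higher genes, includes Lin28a, the gene of an RNA-binding protein. Apart from Lin28a, the homeobox gene Gbx2 (3.60 and 0.227 RPKM, 4.30, SE 0.45) and the nuclear receptor gene Nr0b1 (39.7 and 21.1 RPKM, 1.22) were farthest up. Prdm14 (6.64 RPKM in total RNA, -0.71), Fbxo15 (-0.70) and Dppa5a (1805 and 3387 RPKM, -0.60) were farthest down, and Nanog was lower by the same test (53.7 and 92.9 RPKM, -0.48, SE 0.13, limma adjusted p = 0.0128). Pou5f1 (Oct4) averaged 326 and 375 RPKM, 0.11 from the median gene, which did not pass (limma adjusted p = 0.485).

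Replication-dependent histones, which package newly made DNA, were the family with the most members in the upper end, 33 of the 65 measured. With dox 61 were called higher and 0 lower, and all 65 lay above the median gene (0.41 to 3.05, median 0.90). The 4 without a call were Hist1h4m, Hist1h4n, Hist1h2ad and Hist1h2aa, and 0 had a lower value even at an unadjusted p below 0.05. By class, H1 had 5 of 5 members called higher, H2A 16 of 18, H2B 17 of 17, H3 12 of 12 and H4 11 of 13, with class medians from 0.84 (H2A) to 1.01 (H2B). Hist1h4k, a histone H4 gene, averaged 1164 RPKM in nuclear and 557 RPKM in total RNA with dox (1.38, SE 0.11, limma adjusted p = 5.52e-07). Hist2h2bb averaged 537 and 222 RPKM (1.59), Hist1h2bh 75.9 and 26.0 RPKM (1.86), and Hist3h2ba 5.67 and 0.870 RPKM (3.01, SE 0.57). Under quantile normalization the histone count was 42 higher and 0 lower (median 0.53), and with the trends on exon length and GC content removed it was 34 and 0 (median 0.54).

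The sequence known for this family is the 3′ end stem-loop, and not all members matched it in the search made here. The motif searched, on the transcript's own strand, was GG, any 2 bases, CTTTT, any base, AG, any 2 bases and CC. It was searched at any position of the transcripts and found in 42 of 65 histone members (64.6%) and 20 of 9011 other members (0.222%). A match is a description of the annotated sequence. It is shown for one gene of each class from GENCODE M21 (mm10), the called member farthest up among those with a match. The motif is in capitals, with 5 bases on each side.
Hist1h1e: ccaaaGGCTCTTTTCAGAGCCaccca
Hist1h2ae: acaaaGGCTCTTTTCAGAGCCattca
Hist3h2ba: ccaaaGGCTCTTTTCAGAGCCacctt
Hist1h3d: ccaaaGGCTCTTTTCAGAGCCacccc
Hist1h4j: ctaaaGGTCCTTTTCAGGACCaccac
The H1, H2A, H2B and H3 genes carry the same 16 bases, while the H4 gene Hist1h4j has other paired bases around the loop. Hist1h1e averaged 269 RPKM in nuclear and 157 RPKM in total RNA (1.09), Hist1h2ae 90.2 RPKM in nuclear RNA (1.16), Hist1h3d 675 and 335 RPKM (1.32) and Hist1h4j 388 and 226 RPKM (1.09). Many histone genes are near-identical in their coding parts, and how the authors' counting split shared reads is not given in the sources used here.

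Without dox the same histones lay close to the median gene. Of 65 members 15 were called higher and 2 lower, with a median of 0.15. The difference was larger with dox for 64 of 65, by a median of 0.78 on the log2 scale. That median was 0.26 under quantile normalization, 0.45 with the trend on exon length removed and 0.40 with the trends on exon length and GC content removed. In Hist1h3c nuclear RNA averaged 595 RPKM against 471 RPKM in total RNA with dox (0.65) and 51.6 against 88.6 RPKM without dox (-0.46). The sum over the 68 listed histones was 28731 RPKM in nuclear and 19706 RPKM in total RNA with dox, and 2983 and 3222 RPKM without. Members of one family are not replicates, and no histone passed the test of the difference between dox and no dox (smallest limma adjusted p = 0.0514, for Hist1h3c among others). Other settings called 5 histones at a filter of 5 RPKM, 2 without centring and 1 with no filter, each with the larger difference with dox.

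Small RNAs of the nucleolus and Cajal bodies, which guide modification of ribosomal and spliceosomal RNA, were also high. Of 64 snoRNA and scaRNA genes 30 were called higher and 1 lower, with a median of 0.58 with dox and 0.45 without. With the trend on exon length removed the median was -0.04 (5 higher, 3 lower), about the level of the median gene. That trend was fitted with these short genes included, so removing it can take out their own difference. Whether length or class goes with their position was not tested. Of the 62 with an annotated length, 20 had fewer than about 5 reads in a dox column, and 8 of their 29 calls rest on such genes. Among those called on more reads was Snord49b, with 74.8 RPKM in nuclear and 37.9 RPKM in total RNA (1.29, SE 0.14, limma adjusted p = 1.34e-05). It is a box C/D snoRNA, a class that directs ribose methylation, and its RNA is printed with the C box (TGATGA) and D box (CTGA) in capitals, from GENCODE M21 (mm10).
Snord49b: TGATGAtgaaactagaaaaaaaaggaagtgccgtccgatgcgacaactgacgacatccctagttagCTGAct
The C and D boxes in this order were found in 19 of 25 box C/D members with a transcript sequence. Box H/ACA snoRNAs, which direct pseudouridylation, were among the higher genes too, such as Snora61 (67.5 and 36.9 RPKM, 1.18) and Snora64 (61.8 and 33.1 RPKM, 1.21). The most extreme members rest on about 1 to 4 reads: Scarna8 (3.07 and 0.0258 RPKM), Snora47 (2.12 and 0.0250 RPKM) and Snord95 (2.16 RPKM and listed at 0) on the upper side, and Snora30 (0.0110 and 1.64 RPKM) on the lower.

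Genes for miRNAs, the small RNAs that AGO2 loads, were few above the filter. Of 22 members 8 were called higher and 1 lower (median 0.42), and with the trend on exon length removed 3 were higher and 3 lower (median -0.26). These short genes too were part of the fit of that trend. Of 21 with an annotated length, 15 had fewer than about 5 reads in a dox column, as did 5 of their 8 calls. Called on more reads were Mir6236, described above, Mir6516 (339 and 305 RPKM, 0.46) and Mir6546 (66.7 and 45.7 RPKM, 0.86). Mir18b averaged 3.69 RPKM in nuclear RNA and was listed at 0 in total RNA, and Mir18 (miR-18a) averaged 5.24 and 1.83 RPKM (1.83, SE 0.49, limma adjusted p = 0.0111). Mir290a was listed at 0 in nuclear RNA and averaged 1.84 RPKM in total RNA. All rest on few reads in nuclear and total RNA: about 3.3 and 0.0 for Mir18b, 5.4 and 2.0 for Mir18, 0.0 and 1.7 for Mir290a. The mature RNAs from these hairpins are shown with the seed, bases 2 to 8, in capitals (RefSeq, GRCm38.p6).
miR-18a-5p: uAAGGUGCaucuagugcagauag
miR-18b-5p: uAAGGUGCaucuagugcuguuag
miR-290a-3p: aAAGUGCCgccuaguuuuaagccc
miR-18a and miR-18b share the seed AAGGUGC, and Mir18 lies on chromosome 14 and Mir18b on chromosome X. These libraries measured RNA of the hairpin loci, and mature miRNAs were not measured. Of the protein genes of the pathway most were not called: of 11 members of the silencing machinery Ran was higher (0.33) and Tnrc6b, a partner of AGO proteins, was lower (-0.58), while Ago2 (-0.21, SE 0.17, limma adjusted p = 0.361), Dicer1 (-0.04), Drosha (0.22) and Dgcr8 (-0.16) did not pass.

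Long noncoding RNAs did not share the position of Malat1. Of 106 annotated long noncoding members 26 were called higher and 12 lower, with a median of 0.15 with dox and 0.50 without. Of the 10 nuclear-retained RNAs, 3 were higher and 2 lower with dox (median 0.27), and 7 were higher without dox and the others not called (median 0.62). The lower ones with dox were Malat1 and Neat1, and the higher ones were Firre, which organises chromatin contacts (2.75 and 2.04 RPKM, 0.74), Mirg (4.86 and 3.90 RPKM, 0.63) and Rian (11.4 and 9.89 RPKM, 0.51). Host transcripts of snoRNAs had 7 of 15 called higher and 0 lower by limma, with 1 lower at an unadjusted p below 0.05 (median 0.45), with Snhg8 (23.0 and 13.7 RPKM, 1.06), Snhg20 (0.80) and Snhg12 (0.67) on top. The imprinted RNA H19 averaged 2.80 and 0.848 RPKM (2.04, SE 0.41), and among the other imprinted genes Mest was higher (4.35 RPKM in total RNA, 1.65) and Plagl1 lower (1.63 and 5.84 RPKM, -1.53). Of 27 genes with detained introns, known as kept in the nucleus until splicing is complete, 0 were called higher and 2 lower by limma (1 and 3 at an unadjusted p below 0.05): Ddx5 (-0.34) and Ddx17 (-0.33). Without dox 9 of the 27 were called higher and the others not called, and the medians were -0.11 with dox and 0.28 without. With the trend on exon length removed the dox median turned to 0.01.

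**Figure D3:**
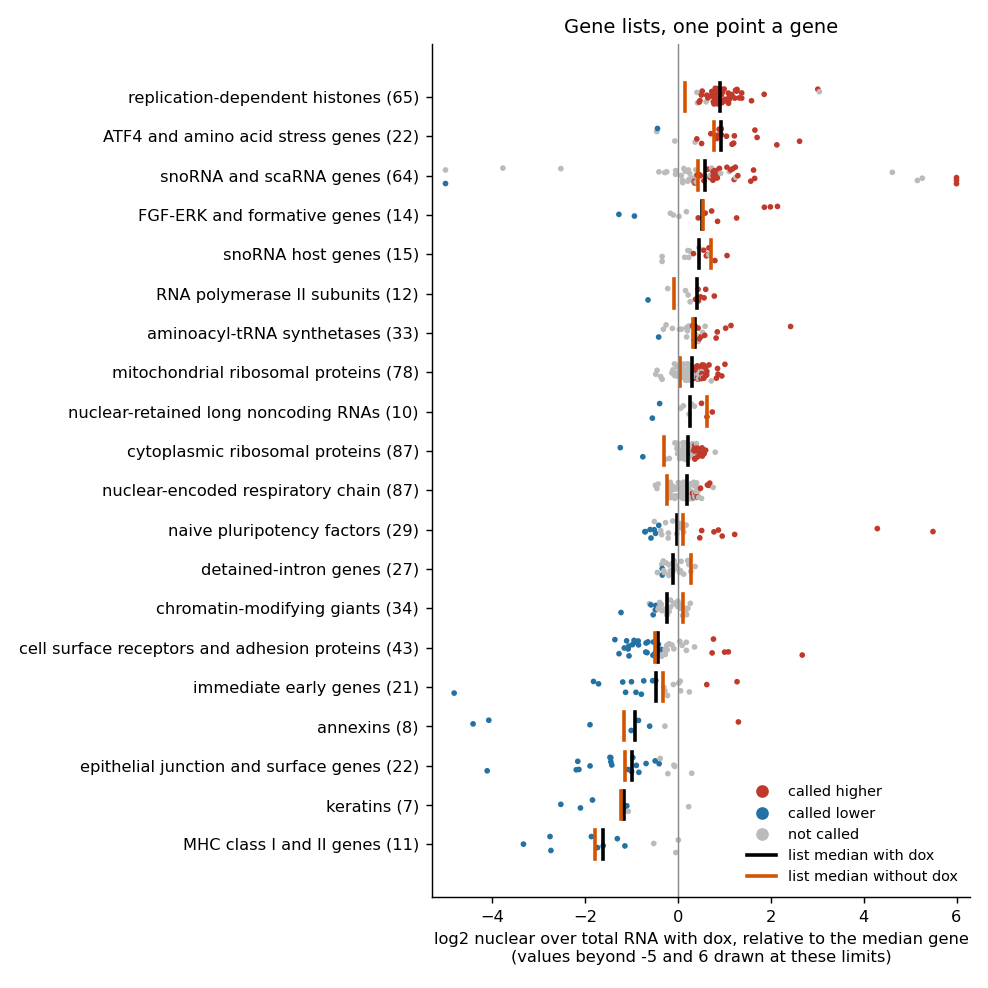
Centred log2 difference of nuclear over total RNA with dox (horizontal), one point a gene, for 20 gene lists with the number of members in parentheses, called genes in colour and list medians with dox (black) and without dox (orange) as bars. Histones and ATF4 genes lie to the right and keratins, epithelial and MHC genes to the left. With the trend on exon length removed, the medians of snoRNAs, detained-intron genes and chromatin-modifying giants move to -0.04, 0.01 and 0.02. That of cytoplasmic ribosomal proteins turns to -0.08 under quantile normalization.

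Genes of protein synthesis were described by complex. Among all genes 15.0% were called higher with dox and 16.5% lower. Cytoplasmic ribosomal proteins had 19 of 87 members called higher and 2 lower (median 0.23), and under quantile normalization 0 higher and 4 lower (median -0.08). Rpl37 averaged 20.6 and 16.8 RPKM (0.60) and Rpl27 65.8 and 55.0 RPKM (0.57), and the testis-enriched paralogs Rpl39l (-1.24) and Rpl10l (-0.75) were the lower ones. Without dox 33 of the 87 were called lower and the others not called (median -0.30). Mitochondrial ribosomal proteins had 25 of 78 called higher and 0 lower by limma, with 2 lower at an unadjusted p below 0.05 (median 0.30), led by Mrps11 (3.98 and 2.45 RPKM, 1.01). Aminoacyl-tRNA synthetases had 13 of 33 higher and 1 lower (median 0.37), among them Sars (55.5 and 33.7 RPKM, 1.03). Subunits of RNA polymerase II had 7 of 12 higher, while the large subunit gene Polr2a was the 1 called lower (15.3 and 29.5 RPKM, -0.64). The 7 became 2 under quantile normalization, 1 without centring and 1 with the trend on exon length removed. Without dox 1 of the 12, Polr2j, was called lower and the others were not called (median -0.08).

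The genes farthest down included annexins and secreted proteins. Anxa1, a calcium-dependent membrane-binding annexin, averaged 0.192 RPKM in nuclear and 5.08 RPKM in total RNA (-4.41, SE 0.56, limma adjusted p = 4.48e-05). Anxa3 averaged 0.370 and 7.73 RPKM (-4.07) and Pglyrp1, an innate immunity protein, 0.343 and 7.03 RPKM (-4.04). The nuclear level was lower than the total level in all 3, and without dox their differences were -4.43, -4.59 and -3.11. Ren1, the protease renin, averaged 0.838 and 14.8 RPKM (-3.83). Genes with higher levels showed it as well: Lefty1, a secreted inhibitor of Nodal, averaged 24.4 RPKM in nuclear and 147 RPKM in total RNA with dox (-2.27, SE 0.11, limma adjusted p = 3.57e-09) and 21.1 and 136 RPKM without (-2.36). S100a6, a calcium-binding protein, averaged 17.5 and 111 RPKM (-2.36).

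The keratin, annexin, S100, epithelial and MHC lists were likewise drawn up after values were seen, so their counts are no independent evidence of direction. Keratins, the filaments of epithelial cells, had 5 of 7 members called lower and 0 higher (median -1.16), with Krt8 at 17.4 and 92.5 RPKM (-2.10, SE 0.11, limma adjusted p = 2.05e-08), Krt19 at 3.86 and 27.4 RPKM (-2.52) and Krt17 at 13.4 and 59.6 RPKM (-1.84). Annexins had 6 of 8 lower and 1 higher, Anxa6 (19.3 and 9.69 RPKM, 1.30). Of 22 epithelial junction and surface genes 17 were lower and 0 higher (median -0.98). Erbb3, a receptor of the EGF receptor family, averaged 5.16 and 28.5 RPKM (-2.15), the splicing regulator Esrp1 1.10 and 6.24 RPKM (-2.19), and Cdh1 (E-cadherin) 28.0 and 55.8 RPKM (-0.68). S100 proteins had 4 of 6 lower and 0 higher (median -1.19). At an unadjusted p below 0.05, 0 members of the keratin, S100 and epithelial lists, and of the MHC list described next, were higher. Trophectoderm, an epithelium, has Krt18 among its markers, which summed to 9.02 RPKM in nuclear and 16.5 RPKM in total RNA (3.38 and 5.45 RPKM without dox), with Cdx2 listed at 0. The part of such cells in these results was not tested.

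Antigen presentation genes were lower together. Of 11 members of the MHC class I and II list 8 were called lower and 0 higher (median -1.60). Tapbp (tapasin), which loads peptides onto class I molecules, lies at chr17:33915899-33929292 (mm10, plus strand) and averaged 6.63 RPKM in nuclear and 54.6 RPKM in total RNA with dox, and 5.96 and 51.0 RPKM without. Total RNA thus held more of it in both treatments. Its centred difference was -2.73 with dox (SE 0.11, limma adjusted p = 9.71e-10) and -2.78 without (limma adjusted p = 7.55e-10). The peptide transporter genes Tap2 (-3.32) and Tap1 (-2.75) and the class I genes H2-D1 (-1.86) and H2-K1 (-1.30) were lower as well, and B2m, the class I light chain, did not pass (3.92 and 6.97 RPKM, -0.52, limma adjusted p = 0.0871).

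Receptors and adhesion proteins had 22 of 43 members called lower and 5 higher (median -0.42 with dox, -0.50 without). Sdc4, a heparan sulfate proteoglycan, averaged 16.8 and 53.2 RPKM (-1.35) and Itgav, an integrin chain, 2.38 and 7.09 RPKM (-1.26). The Hedgehog transducer Smo went the other way (2.53 and 0.490 RPKM, 2.68, SE 0.33), as did Notch3 (1.09) and Kit (1.01). Secreted and matrix proteins were mixed, with 12 of 32 lower and 8 higher: the collagen genes Col4a1 (1.24 and 5.58 RPKM, -1.86) and Col4a2 (-1.49) were lower, and the laminin chain Lamb1 was higher (7.89 and 3.55 RPKM, 1.47). Proteins resident in the ER had 5 of 38 lower and 1 higher (median -0.13), beside the 16.5% of all genes called lower.

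Immediate early genes, which respond first to growth signals, had 11 of 21 called lower and 2 higher (median -0.47). Without dox 6 of the 21 were called lower and 6 higher (median -0.31). Btg2 averaged 2.33 and 10.2 RPKM (-1.81) and Jun 0.852 and 3.45 RPKM (-1.71), whereas Myc (2.57 and 1.32 RPKM, 1.28) and Egr1 (4.14 and 3.34 RPKM, 0.62) were higher. Cholesterol synthesis had 8 of 19 lower and 3 higher (median -0.21), with Sqle, which makes squalene epoxide, at 6.51 and 15.9 RPKM (-0.98). In glycolysis Ldhb (114 and 58.1 RPKM, 1.29) and Aldoa (284 and 175 RPKM, 1.01) were higher and Hk1 (6.22 and 12.3 RPKM, -0.67) lower. Very large chromatin regulators had 0 of 34 called higher and 5 lower by limma (0 and 12 at an unadjusted p below 0.05), among them Baz2b (-1.22) and Kmt2a (1.61 and 2.88 RPKM, -0.53). Their median of -0.22 turned to 0.02 with the trend on exon length removed.

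Genes at the upper end had shorter transcripts. The median length of merged exons was 2529 bases in the upper end, 3676 in the lower end and 4375 between them, and the median GC content was 55.2%, 51.8% and 51.0%. Single-exon genes made up 16.56% of the upper end, 5.3% of the lower end and 3.73% of the rest. Of 226 coding genes with a single exon 80 were called higher and 28 lower, but without the histones the counts were 25 and 28 of 167. Across 9078 genes with an annotated length the centred difference had a Spearman correlation of -0.24 with exon length and 0.19 with GC content, as a description, since genes are not independent. In the shortest decile (62 to 1566 bases) 30.73% of genes were called higher and 8.81% lower, and in the longest decile 4.19% and 23.35%. Without dox these correlations were 0.05 with exon length and 0.00 with GC content.

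**Figure D4:**
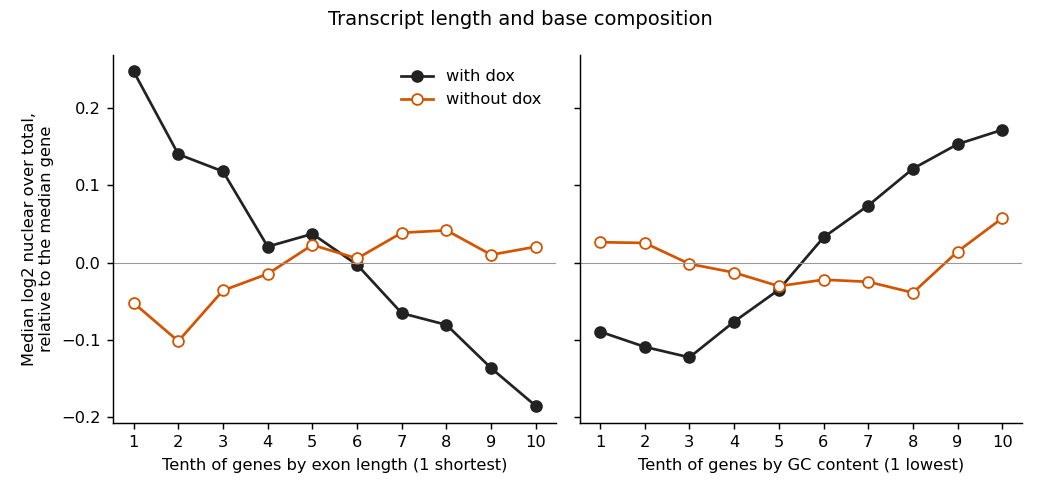
Median centred log2 difference of nuclear over total RNA (vertical) by decile of genes (1 of 10 groups of like size), ordered by exon length (left) and by GC content (right), with dox (filled) and without dox (open). With dox the medians go from 0.25 in the shortest to -0.19 in the longest decile, and without dox all 20 medians lie between -0.10 and 0.06.

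The columns without dox, whose libraries the choice of the ends did not use, held both ends in large part. Of the 457 upper genes 286 (62.6%) were called higher without dox and 2 lower, against 12.0% of all genes called higher there, and 432 lay on the same side of the median gene. Of the 457 lower genes 366 (80.1%) were called lower without dox, against 17.0% of all genes, and 448 lay on the same side. Each gene's spread is one estimate over all 4 groups, so the tests with and without dox share it. Over the 9136 genes the centred differences with and without dox had a Pearson correlation of 0.75 and a Spearman correlation of 0.70. Higher in both treatments were 650 genes, of 1370 called with dox and 1097 without, and lower in both were 958, of 1503 and 1555.

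In the direct test of dox against no dox, 0 of 9136 genes (0.0%) had a different nuclear-to-total difference at a limma adjusted p below 0.05. At an unadjusted p below 0.05 there were 1287 genes, 878 with a larger difference with dox and 409 with a smaller one. The 5.0% of genes that this threshold passes where no gene differs would be 457. The median SE of this difference was 0.25 on the log2 scale, against 0.18 for the comparison with dox. The smallest adjusted p was 0.0514, shared by Hist1h3c, Hist1h2af, Gm6654 and Fth1, the ferritin heavy chain (89.7 and 75.6 RPKM with dox, 21.4 and 33.9 RPKM without). Genes called on opposite sides in the treatments numbered 21 higher with dox and lower without, among them Fth1, the ferritin light chain gene Ftl1, Rpl18, Rpl27, Rpl36, Rplp2 and the polymerase subunit gene Polr2j (6.25 and 4.49 RPKM with dox, 2.41 and 4.69 RPKM without). The reverse held for 2, Crebzf and Mettl25. Ribosomal proteins had a larger difference with dox for 83 of 87 members and respiratory chain genes for 79 of 87, against 50.7% of all genes. Their medians of dox minus no dox were 0.50 and 0.37. These were 0.08 and 0.25 under quantile normalization, and 0.29 and 0.17 with the trend on exon length removed. Across genes, dox minus no dox had a Spearman correlation of -0.39 with exon length.

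**Figure D5:**
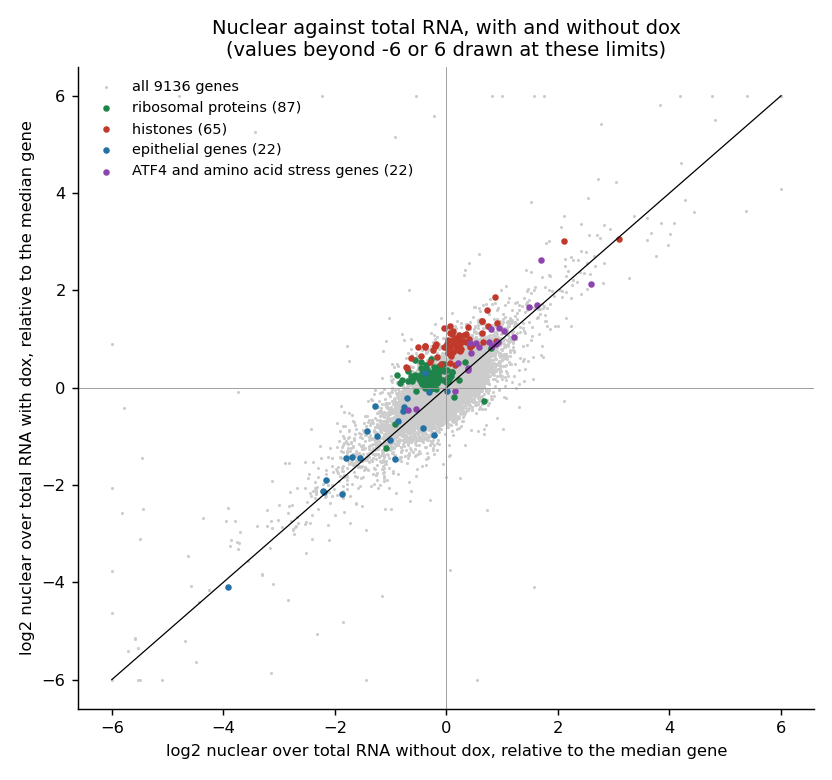
Centred log2 difference of nuclear over total RNA with dox (vertical) against without dox (horizontal), one point a gene, with 4 gene lists in colour and a line of equal values. Histones and ribosomal proteins lie above the line, the latter by a median of 0.50, which was 0.08 under quantile normalization. Epithelial and ATF4 genes lie near it at the lower left and upper right.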

How the data were processed

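RNA of 12 listed libraries was sequenced with a directional kit and rRNA depletion, per the labels' protocols. Tools listed in the submitters' processing notes are TopHat and bcl2fastq 2.17.1, with the build mm10, and per the file headers RPKM and an ANOVA were made in Partek 6.6. The gene annotation and the use of strand in counting are not given in the sources used here. The deposited values are log2(RPKM + 0.001) means of each group, per the file headers, with the authors' ANOVA p-value for the effect of dox within each fraction. The authors' ratio and signed fold change (a score) columns were deposited too and were not used. RPKM printed here are those means taken back to the linear scale, less 0.001, so a library without reads pulls a mean far down.

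Each gene's residual SD was recovered from the deposited p-values: with 6 residual degrees of freedom both gave the same SD, within 0.001, for 100% of 17277 genes. The numbers of libraries follow from genes above 0 in 1 group alone, and the depths from the smallest steps of low values. limma 3.58.1 in R 4.3.3 shrank the variances toward a trend on mean level (prior degrees of freedom, median 8.92), and p-values were adjusted by Benjamini-Hochberg over the 9136 genes. Symbols were matched to GENCODE M21, 19179 directly and 243 by a RefSeq synonym. Named genes are the 15 farthest called genes on each side with 5 RPKM or more in the higher and 0.05 RPKM or more in the lower column, up to 3 called members farthest up and down in each list, and landmarks; other members are named to complete a family and were chosen after their values were seen. A few genes that the rule names are not reported here. Members and lists were chosen with earlier results of these data known, and the keratin, annexin, S100, epithelial, MHC, ATF4, FGF, imprinted and let-7 lists were added after values were seen, so lists are described by counts and medians with no set test. Alternatives changed the centring, the filter, the moderation, the scaling, the pseudocount (0.1 RPKM), and the trends on exon length and GC content.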

Additional observations from a re-analysis of the deposited data

How the results depend on the processing

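No paired analysis was possible because the deposited table holds group means without values of single libraries, and for the same reason leaving out each replicate and the replicate block were not run. Without centring 573 genes were higher, 3375 lower and 4 differed between dox and no dox, and at a filter of 5 RPKM there were 725, 853 and 31, of 4346 genes tested. Genes that differed between dox and no dox, 0 in the report, numbered 10 with no filter and 47 under quantile normalization. With no filter, which fills the ends with genes of few reads, 7.6% of the upper end was called higher without dox and 9.8% of the lower end called lower. Among the farthest genes and the landmarks, no gene called in the main or the altered setting reversed. Pou5f1 (-0.20) and Gapdh (-0.02), neither called, changed sign without centring. The balance of higher and lower calls turned in several families, in most of them without centring. Detained-intron genes had 2 higher and 0 lower with the length trend removed, and cytoplasmic ribosomal proteins 0 and 4 under quantile normalization and 0 and 5 without centring. Of 240 values of the genes named as farthest from the median gene, 233 kept direction and call, and 7 lost the call: Mir6236 under 5 settings, Lars2 and Copz2 without moderation (adjusted p = 0.0754 for Copz2). Depth limits the small RNA genes, where calls can rest on 1 to 4 reads.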

Other observations

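Solute carriers and zinc finger genes were counted as well, beside 15.0% of all genes called higher and 16.5% lower. Of 114 solute carriers outside mitochondria 20 were called higher and 30 lower (median -0.13). The creatine transporter gene Slc6a8 averaged 12.5 RPKM in nuclear and 60.8 RPKM in total RNA with dox (-1.97), and the zinc transporter gene Slc30a2 averaged 2.09 and 0.320 RPKM (3.01). Of 143 Zfp genes 17 were higher and 10 lower (median 0.02), and 4 and 36 without centring, with Zfp105 farthest up (2.02 and 0.810 RPKM, 1.63) and Zfp367 farthest down (1.39 and 4.68 RPKM, -1.43). The immunoproteasome subunit gene Psmb8 averaged 0.138 and 4.27 RPKM (-4.63).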
